A study of Mus musculus with 19 samples.

Results

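The genes described here encode the machinery of synaptic vesicles and transmitter release, measured in mouse medulloblastoma allografts. They are a named set of 33 genes, chosen with earlier results of these data known. Every probe set that the platform annotation assigned to one of these symbols was used. That gave 90 of the 45037 probe sets analysed. After a filter on low signal, 78 of these probe sets and 32 of the 33 genes were kept, of 31143 probe sets and 13454 genes kept in all. The gene left out was Slc32a1, the vesicular transporter for GABA and glycine.

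A neuron releases transmitter when a vesicle, filled by a transporter in its membrane, docks at the active zone of the presynaptic membrane and fuses there as calcium enters. Fusion is driven by SNARE proteins on vesicle and plasma membrane, is triggered by synaptotagmins and is followed by clathrin-dependent retrieval of the vesicle membrane. Medulloblastoma of this kind arises from granule neuron precursors of the cerebellum, cells that divide under Sonic hedgehog signalling and that express most of this machinery only as they become glutamatergic granule neurons.

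The series holds 19 tumours with 1 array each: 8 from mice given NVP-LDE225 at 40 mg/kg, 8 from mice given 160 mg/kg, and 3 from mice given vehicle. NVP-LDE225 (sonidegib) is an inhibitor of Smoothened, the membrane protein that passes on the hedgehog signal. All tumours, those given vehicle included, were Ptch+/-p53-/-, so each lacked p53 and carried 1 working copy of the receptor gene Ptch at the outset. They grew under the skin of the flank of nude mice, which lack mature T cells but supply blood vessels, matrix and other immune cells, from cells taken directly from tumours. The labels call the treated tumours resistant and the vehicle tumours sensitive. The length of treatment, the ages of the animals and the number of donor tumours are not given in the sources used here. Nothing in the labels says that the tumours of a group came from separate donor tumours, so the p-values measure the spread between these allografts.

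Values are signal intensities scaled per array by the authors with the MAS5 algorithm. The median signal of an array lay between 32.7 and 49.7, and pairs of arrays correlated between 0.908 and 0.963 on the log2 scale. The arrays least like the others were 160 mg/kg tumour 2 and vehicle tumour 3, with median correlations of 0.931 and 0.928. All 12 listed markers of granule neuron precursors and medulloblastoma were kept by the filter and measured in every group. Their summed signals were 13801 to 17289 at 40 mg/kg, 11627 to 19582 at 160 mg/kg and 10995 to 11933 in vehicle tumours. In the limma fit described next, over both doses, 4 of the 12 rose and 0 fell, where 2.84% of all genes rose and 2.45% fell. The changes of the 12 were positive in 7 and negative in 5, with a median of 0.17. Changes are differences of log2(signal + 2.5), tested with limma in 1 fit of all 19 arrays, and a gene is said to have risen or fallen when its Benjamini-Hochberg adjusted p over all kept probe sets was under 0.05. A gene is represented by its kept probe set of highest mean signal. In such bulk tissue, more cells of a kind and more RNA of a gene per cell cannot be told apart.

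The genes that rose at both doses were Snap91, Slc17a6 and Napb. Their promoters are shown because these are the members on which the comparison at each dose rests. The sequences run from 250 bases before to 50 bases after the annotated start of transcription, are written 5′ to 3′ on the strand of the gene, and come from RefSeq on build GRCm38.p6. Capitals mark matches to any of the 7 motifs named in the next paragraph.
Snap91, chr9:86880659-86880958, minus strand: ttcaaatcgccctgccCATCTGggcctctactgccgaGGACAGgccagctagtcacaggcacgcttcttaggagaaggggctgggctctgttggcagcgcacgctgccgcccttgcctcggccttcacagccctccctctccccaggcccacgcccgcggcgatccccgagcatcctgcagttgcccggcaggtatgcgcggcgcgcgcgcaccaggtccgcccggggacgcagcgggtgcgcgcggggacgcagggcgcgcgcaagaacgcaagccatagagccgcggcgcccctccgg
Slc17a6, chr7:51621580-51621879, plus strand: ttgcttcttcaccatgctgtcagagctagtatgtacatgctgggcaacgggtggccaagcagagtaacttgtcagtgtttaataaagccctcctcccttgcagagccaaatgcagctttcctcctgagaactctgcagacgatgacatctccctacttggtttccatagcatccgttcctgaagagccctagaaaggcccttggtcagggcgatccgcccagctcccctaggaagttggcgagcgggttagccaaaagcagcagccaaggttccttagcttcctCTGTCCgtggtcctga
Napb, chr2:148732371-148732670, minus strand: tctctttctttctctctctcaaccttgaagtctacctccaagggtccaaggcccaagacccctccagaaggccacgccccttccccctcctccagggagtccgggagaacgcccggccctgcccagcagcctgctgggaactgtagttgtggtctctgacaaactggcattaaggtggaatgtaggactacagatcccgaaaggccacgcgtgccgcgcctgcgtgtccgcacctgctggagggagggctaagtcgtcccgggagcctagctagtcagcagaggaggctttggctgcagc

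Promoters on a single chromosome were left out for the members but not for all promoters. The entries used covered 29 of the 33 genes, 37 promoters in all. Snap25, Snapin, Syt4 and Vamp2 had no entry, through that omission or for another reason. GGACAG, a part of the element bound by the neuronal gene repressor Rest, was found on either strand in 8 of the 37 promoters (21.6%), against 22.2% of all 32851 promoters of the same length. The other part of that element, TCAGCACC, was found in 2 (5.41%), against 1.65% of all promoters. The cyclic AMP response element TGACGTCA was likewise in 2 of 37, against 1.79%, and its inner part TGACG, which the full element contains, in 9 (24.3%), against 20.8%. The E-boxes CAGATG and CAGCTG were in 5 (13.5%) and 10 (27.0%), against 17.2% and 16.3%. The Gli-binding sequence TGGGTGGTC was in 0 of 37, against 0.253%. The Snap91 promoter held CAGATG, on the other strand, from position -234 and GGACAG from position -213 relative to the start. The Slc17a6 promoter shown held GGACAG, on the other strand, from position 34. A second annotated Slc17a6 promoter, chr7:51624387-51624686, held TGACG from position -102 and CAGATG from position -205, and no GGACAG. The Napb window held none of the 7. The members' promoters had a median G+C content of 61.3%, against 52.7% of all promoters, and 72% in Snap91. These matches describe the letters in the windows and were not tested.

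Set against vehicle over both doses, 5 of the 32 kept genes rose and 0 fell. Across all kept genes, 2.84% rose and 2.45% fell. The genes that rose were Snap91 and Dnm1, which act in vesicle retrieval, Slc17a6, which loads vesicles with glutamate, Napb, which recycles SNARE complexes, and Rab3a, the small GTPase of synaptic vesicles. Of the 32 changes, 27 were positive and 5 negative, with a median of 0.52 on the log2 scale, against a median of -0.06 over all genes. At an unadjusted p under 0.05 the limma fit gave 13 positive and 2 negative members, where 10.2% of all genes were positive and 13.1% negative at that threshold. Because the set was chosen with earlier results of these data known, the shares over all genes describe it and do not test it. The summed signal of the 32 genes was 5716 to 14525 at 40 mg/kg, 6485 to 14809 at 160 mg/kg and 5309 to 6061 in vehicle tumours. In 4 of the 32 genes (Snap91, Slc17a6, Napb and Dnm1) all 16 treated tumours lay above all 3 vehicle tumours, and in 0 genes below them, where 1.99% of all genes lay wholly above and 2.53% wholly below. All 5 genes that rose were above the filter on all 3 vehicle arrays, as were 28 of the 32; Rims1 and Slc17a7 passed on 0 vehicle arrays, Syt4 on 1 and Dnm3 on 2.

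**Figure D1:**
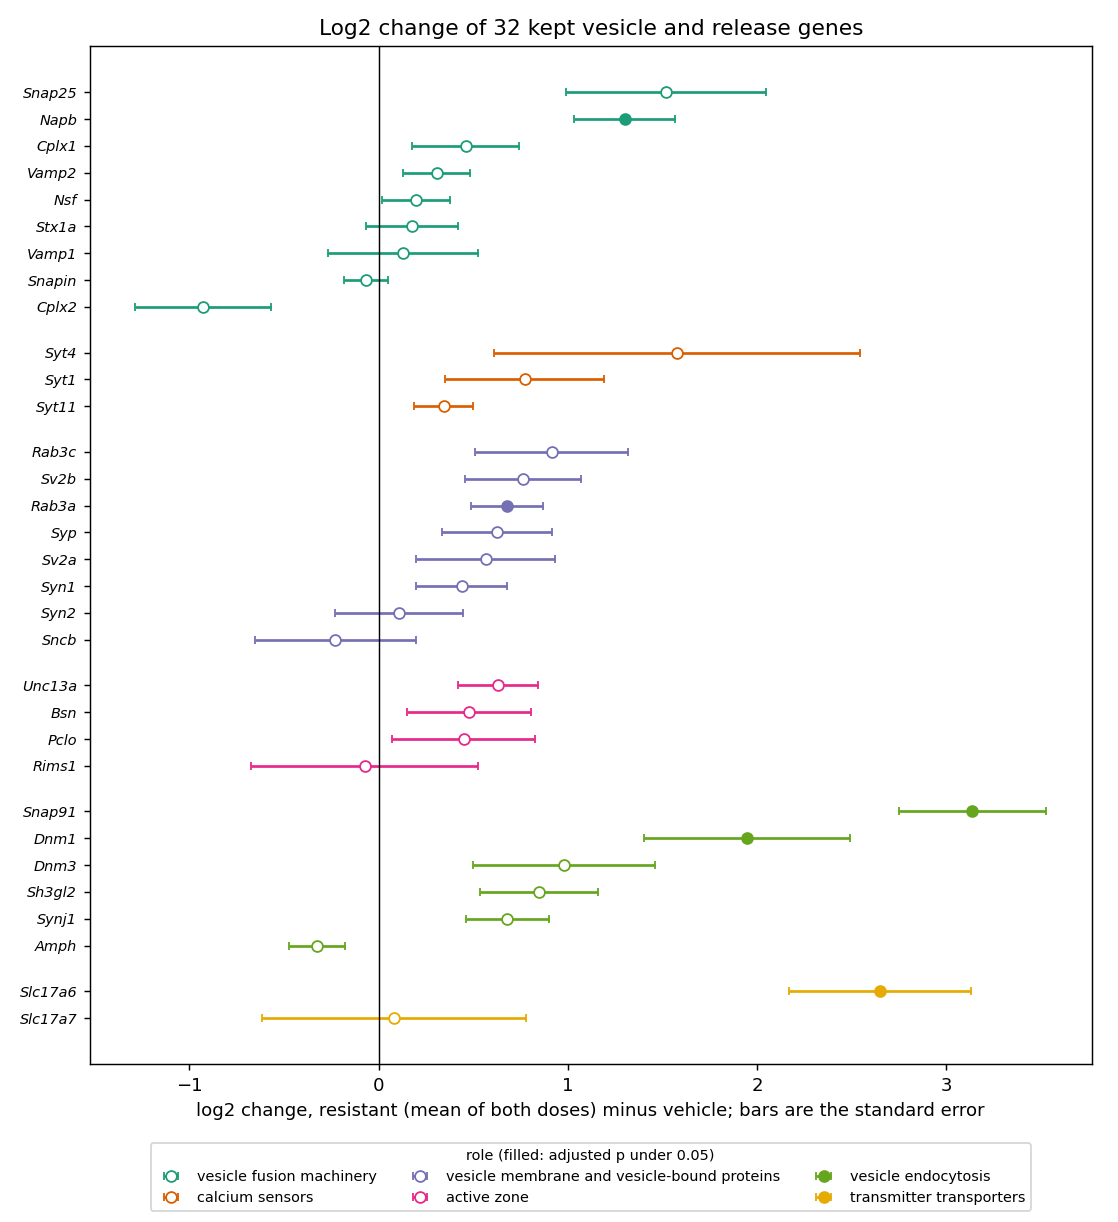
Log2 change of each of the 32 kept genes (points, with the standard error as bars) for resistant tumours, taken as the mean of both doses, minus vehicle tumours, grouped by role. Filled points are the 5 genes with an adjusted p under 0.05, and the points of Snap91 (3.14) and Slc17a6 (2.65) lie farthest to the right, while Cplx2 (-0.93) lies farthest to the left.

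The endocytic genes held the member with the largest change of the 32. Snap91 encodes AP180, the neuronal adaptor that assembles clathrin on vesicle membrane. Its lowest, median and highest signals were 213, 442 and 1005 at 40 mg/kg and 221, 542 and 916 at 160 mg/kg, against 56.2, 40.8 and 54.8 in the 3 vehicle tumours. No treated tumour came near the vehicle values, and the 2 doses covered the same range. Tumours given 40 mg/kg averaged 492 ± 246 (SD, n = 8) and those given 160 mg/kg 534 ± 255 (SD, n = 8), against 50.6 ± 8.52 with vehicle (SD, n = 3). The log2 change was 3.14 (SE 0.39, adjusted p = 0.000417), a fold of 8.8. Its other kept probe set, with vehicle signals of 1.6 to 2.5, had a log2 change of 1.51 (adjusted p = 0.184).

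Dnm1 encodes dynamin 1, the neuronal GTPase that cuts the budding vesicle from the plasma membrane. Its signals were 57.5, 90.0 and 596 (lowest, median, highest) at 40 mg/kg and 49.9, 128 and 439 at 160 mg/kg, against 33, 26.8 and 35.9 with vehicle. All treated tumours were above the vehicle tumours, but most of them by far less than the highest, which was 40 mg/kg tumour 2. The log2 change was 1.95 (SE 0.55, adjusted p = 0.0465). The call was lost without any 1 of the 3 vehicle tumours, with adjusted p of 0.145 to 0.172, and its other probe set had 0.69 (adjusted p = 0.347).

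The remaining endocytic genes did not pass. Synj1, the phosphoinositide phosphatase that uncoats vesicles, had 353 to 846 at 40 mg/kg, 408 to 809 at 160 mg/kg and 337 to 357 with vehicle, so that 15 of 16 treated tumours were above all vehicle tumours (log2 change 0.68, SE 0.22, adjusted p = 0.0786). Sh3gl2, which encodes the membrane-bending protein endophilin A1, had a log2 change of 0.85 (adjusted p = 0.12), with 11 of 16 above. Dnm3, another dynamin, had 0.98 (adjusted p = 0.245). Amph, the BAR-domain partner of dynamin, had a negative value of -0.33 (adjusted p = 0.208), with 0 treated tumours above and 12 below all vehicle tumours. The median change over these 6 genes was 0.91.

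Of the transmitter transporters, Slc17a6 rose. It encodes VGLUT2, a vesicular glutamate transporter that granule cells of the cerebellum use early, before Slc17a7 (VGLUT1) predominates in the adult. Slc17a6 signals were 97.8, 424 and 671 at 40 mg/kg and 130, 541 and 945 at 160 mg/kg, against 88.1, 49.2 and 54.1 with vehicle. The lowest treated tumour was just above the highest vehicle tumour, and the median tumour of either dose was well above it. Means were 412 ± 169 and 515 ± 287 at 40 and 160 mg/kg (SD, n = 8 each) and 63.8 ± 21.2 with vehicle (SD, n = 3). The log2 change was 2.65 (SE 0.48, adjusted p = 0.00442), a fold of 6.27. Its second probe set gave 2.31 (SE 0.45, adjusted p = 0.00668) and also separated all 16 treated from the 3 vehicle tumours.

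Slc17a7 did not pass the test. Its signals were 9.6, 17 and 127 at 40 mg/kg and 1.7, 10.3 and 110 at 160 mg/kg, against 12.1, 15.2 and 22.9 with vehicle (log2 change 0.08, SE 0.70, adjusted p = 0.959). Only 2 tumours, 40 mg/kg tumour 2 and 160 mg/kg tumour 8, were above 100. The 4 probe sets of Slc32a1 were at or near the bottom of the scale everywhere, with a highest signal of 19.9 in any treated and 21.4 in any vehicle tumour. Gad1, an enzyme that makes GABA, was also under the filter, at up to 17.6 in treated and 5.7 in vehicle tumours. Other listed markers of GABAergic interneurons, 2 in number, were kept by the filter. Their summed signals were 159 to 1192 at 40 mg/kg, 133 to 2643.5 at 160 mg/kg and 927.5 to 1119 with vehicle (median log2 change -0.69).

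**Figure D2:**
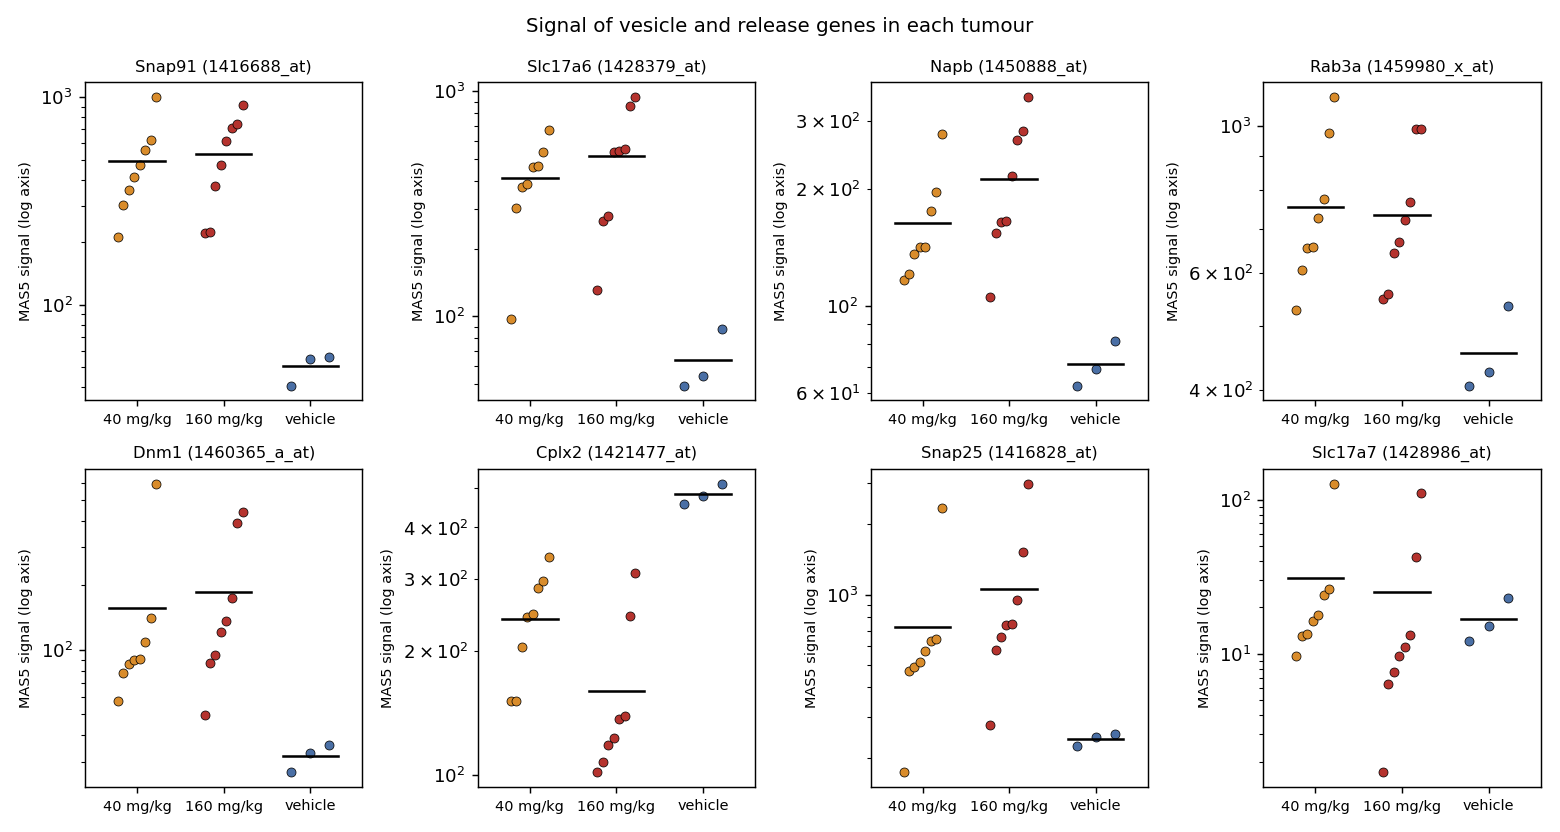
MAS5 signal (log axis) of 8 members, 1 panel and 1 probe set per gene, for 40 mg/kg, 160 mg/kg and vehicle tumours. Each point is a tumour, spread sideways by rank, each bar is the group mean, and Cplx2 is shown by the probe set with a change of -1.37. All 16 treated points of Snap91, Slc17a6, Napb and Dnm1 lie above the 3 vehicle points.

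Among the fusion genes, only Napb passed by its representative probe set. Napb encodes beta-SNAP, the neuronal partner of the ATPase NSF in taking SNARE complexes apart. Its signals were 117, 142 and 278 at 40 mg/kg and 106, 191 and 346 at 160 mg/kg, against 81.4, 68.9 and 62.5 with vehicle. All 16 treated tumours were above all vehicle tumours, and the groups stood closer together than for Snap91. The log2 change was 1.30 (SE 0.27, adjusted p = 0.00909), a fold of 2.46. The call was lost without vehicle tumour 2 (adjusted p = 0.0533) or vehicle tumour 3 (adjusted p = 0.0875). Its other 4 probe sets had changes of 1.08 to 1.55, and 2 of them passed, at adjusted p of 0.0258 and 0.0291.

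Snap25, the plasma membrane SNARE of neurons, varied widely between treated tumours. Its signals were 173, 544 and 2339 at 40 mg/kg and 277, 747 and 2992 at 160 mg/kg, against 254, 244 and 225 with vehicle. The 3 vehicle tumours lay close together and 15 of 16 treated tumours were above them, with 40 mg/kg tumour 4 below. With that spread the log2 change of 1.52 (SE 0.53) had an adjusted p of 0.103. A dim second probe set gave 0.05 (adjusted p = 0.973).

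Cplx2 fell by 2 of its 3 probe sets. It encodes complexin 2, which clamps and then helps to trigger the assembled SNARE complex. Its representative probe set had 156, 307 and 606 at 40 mg/kg and 125, 303 and 522 at 160 mg/kg, against 573, 617 and 576 with vehicle. It was under the lowest vehicle value in 15 of 16 treated tumours, but did not pass (log2 change -0.93, SE 0.36, adjusted p = 0.138). The other Cplx2 probe sets did pass. One had 151, 244 and 338 at 40 mg/kg and 101, 130 and 310 at 160 mg/kg, against 512, 456 and 478 with vehicle, a change of -1.37 (SE 0.27, adjusted p = 0.00769) with all 16 treated tumours below all 3 vehicle tumours. The last had 116 to 368, 78.2 to 337 and 454 to 475, in the same order of groups, a change of -1.20 (SE 0.34, adjusted p = 0.049), again with 16 of 16 below. When its 3 probe sets were averaged per tumour, Cplx2 fell (-1.17, adjusted p = 0.0386).

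Cplx1, the gene for complexin 1, had positive values that did not pass. Its 3 probe sets had log2 changes of 0.46, 0.96 and 0.06 (adjusted p = 0.348, 0.117 and 0.922). The vesicle SNAREs Vamp2 (0.31, adjusted p = 0.318) and Vamp1 (0.13, adjusted p = 0.88), the syntaxin Stx1a (0.18, adjusted p = 0.702), Nsf (0.20, adjusted p = 0.535) and the SNAP25-binding protein gene Snapin (-0.07, adjusted p = 0.773) had small changes that did not pass. The median over the 9 fusion genes was 0.20.

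The calcium sensors did not pass. Syt1, the sensor for fast release, had 63.3, 121 and 423 at 40 mg/kg and 59.4, 94.8 and 282 at 160 mg/kg, against 82.3, 60.5 and 75.6 with vehicle, and 13 of 16 treated tumours were above all vehicle tumours (log2 change 0.77, SE 0.42, adjusted p = 0.292). Syt4, a synaptotagmin found on dense-core vesicles too, had 4.3, 24.8 and 278 at 40 mg/kg and 11.9, 122 and 394 at 160 mg/kg, against 13.3, 10.7 and 37.7 with vehicle. Treated tumours ranged from below to far above the vehicle tumours, and its change of 1.58 (SE 0.97) had an adjusted p of 0.351. Syt11, a synaptotagmin that does not bind calcium, had 0.34 (adjusted p = 0.208).

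Of the proteins on the vesicle membrane, Rab3a rose. Its signals were 528, 692 and 1106 at 40 mg/kg and 548, 695 and 987 at 160 mg/kg, against 406, 426 and 535 with vehicle. One treated tumour was below the highest vehicle tumour and the other 15 were above it. The log2 change was 0.68 (SE 0.19, adjusted p = 0.0465), and the call was lost without any 1 of the 3 vehicle tumours, with adjusted p of 0.111 to 0.196. A second Rab3a probe set had 110, 170 and 319 at 40 mg/kg and 127, 185 and 327 at 160 mg/kg, against 92.3, 56.3 and 34.7 with vehicle. There the groups did not overlap, and the change was 1.67 (SE 0.29, adjusted p = 0.00349).

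The other 7 vesicle proteins did not pass. The related GTPase gene Rab3c had a change of 0.91 (adjusted p = 0.196), and the vesicle glycoprotein genes Sv2b and Sv2a had 0.76 (adjusted p = 0.151) and 0.57 (adjusted p = 0.381). Synaptophysin, Syp, the most used marker of synaptic vesicles, had signals of 99.1 to 266 at 40 mg/kg and 110 to 336 at 160 mg/kg, against 75.2 to 169 with vehicle (0.63, SE 0.29, adjusted p = 0.219). Of the synapsins, which tether vesicles to each other, Syn1 had 0.44 (adjusted p = 0.293) and Syn2 0.11 (adjusted p = 0.88). Syn2 had 7 treated tumours above and 8 below all vehicle tumours. Sncb, beta-synuclein, had -0.23 (adjusted p = 0.786).

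None of the 4 active zone genes passed in the limma fit, and 1 had an unadjusted p under 0.05 with a positive change, as did 10.2% of all genes. That gene was Unc13a, which encodes the priming factor Munc13-1. It had 39.5, 54.0 and 97.5 at 40 mg/kg and 43.7, 53.7 and 76.1 at 160 mg/kg, against 36.7, 28.5 and 40.9 with vehicle, with 15 of 16 treated tumours above (log2 change 0.63, SE 0.21, adjusted p = 0.0879). The scaffold genes Bsn and Pclo had 0.48 (adjusted p = 0.407) and 0.45 (adjusted p = 0.508). Rims1, the scaffold that binds Rab3, had -0.07 (adjusted p = 0.957), and its signals were low in all but 2 tumours.

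Counted by probe set, 9 of the 78 rose, from the 5 genes that rose, and 2 fell, both of Cplx2, where 2.64% of all kept probe sets rose and 1.83% fell. Of the 25 genes with several kept probe sets, 7 had changes of both signs, none of them past the threshold. These were Bsn (0.48 and -0.03), Dnm3 (0.98, 1.20, 1.06 and -0.32), Rims1 (-0.07 and 0.68), Snapin (-0.07 and 0.18), Stx1a (0.18 and -0.13), Syn2 (4 from 0.11 to 0.25, and -0.08) and Vamp1 (0.13 and -0.68).

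At 40 mg/kg alone, 3 of the 32 genes rose against vehicle and 0 fell, where 1.7% of all genes rose and 0.847% fell. At 160 mg/kg, 4 rose and 0 fell, where 2.45% of all genes rose and 2.45% fell. Snap91 rose by 3.09 (adjusted p = 0.00126) at 40 mg/kg and by 3.18 (adjusted p = 0.000696) at 160 mg/kg. Slc17a6 rose by 2.53 (adjusted p = 0.0144) and 2.77 (adjusted p = 0.00515), and Napb by 1.13 (adjusted p = 0.0431) and 1.47 (adjusted p = 0.0075), at 40 and 160 mg/kg. Dnm1 passed at 160 mg/kg (2.12, adjusted p = 0.0459), with a change of 1.77 (adjusted p = 0.11) at 40 mg/kg. Rab3a passed at neither dose alone (0.69, adjusted p = 0.0791, and 0.66, adjusted p = 0.0715). Both comparisons share the 3 vehicle tumours.

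Between the doses, 160 minus 40 mg/kg, limma called 0 members, as it called 0% of all genes. The median difference over the 32 genes was 0.06, and 1 gene had an unadjusted p under 0.05, where 7.41% of all genes did. That was Cplx1, with 287, 371 and 1057 at 160 mg/kg, against 215, 305 and 486 at 40 mg/kg, a difference of 0.49 (unadjusted p = 0.0413, adjusted p = 0.72). The ranges of the 2 doses overlapped.

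Several members were high or low in the same tumours. In 40 mg/kg tumour 2, 15 of the 32 genes had their highest signal of the 16 treated tumours, where 4.32% of all genes did. At 160 mg/kg the count was 7 in tumour 8, where 7.82% of all genes were highest. It was 5 of 32 in tumour 2 of that dose, near the share of all genes there (15.4%). At the other end, 40 mg/kg tumour 4 had the lowest signal for 9 members (7.96% of all genes). In 40 mg/kg tumour 2, 28 members were above all 3 vehicle tumours, where 29.2% of all genes were. At 160 mg/kg this held for 29 members in tumour 8 (30.6% of all genes) and 27 in tumour 7 (28.8%). The lowest count was 10 of 32, in 40 mg/kg tumours 4 and 8, near the shares of all genes there (26.9% and 26.4%).

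**Figure D3:**
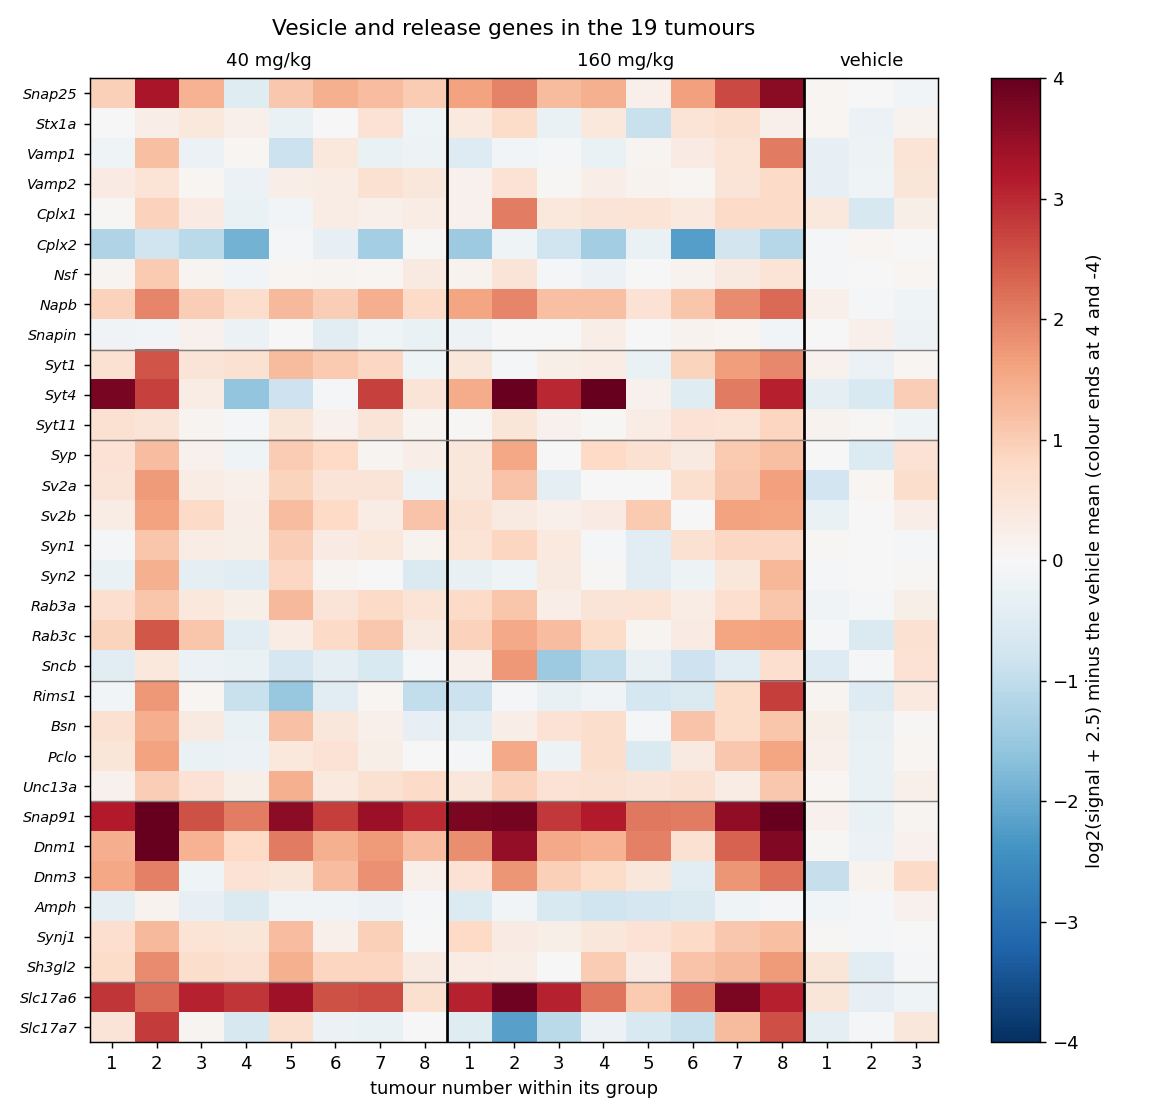
Log2 difference of each kept gene in each tumour (columns, 40 mg/kg, then 160 mg/kg, then vehicle) from the vehicle mean, with genes in rows by role. The column of tumour 2 at 40 mg/kg and that of tumour 8 at 160 mg/kg are above all vehicle tumours for 28 and 29 of the 32 genes, whereas Snap91 and Slc17a6 are raised in all 16 treated columns and Cplx2 is lowered in most.

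Some markers of the mature granule neuron were high in 40 mg/kg tumour 2 and in tumours 7 and 8 at 160 mg/kg, but not in 160 mg/kg tumour 2, whose summed signal of these markers, 441, was the lowest of the 19 tumours. Gabra6, the GABA receptor subunit that granule neurons switch on late, had a signal of 1169 in 40 mg/kg tumour 2. At 160 mg/kg it reached 901 in tumour 8 and 290 in tumour 7. It was at most 47.1 in the other treated tumours and at 1.7, 10.8 and 25 in vehicle tumours. Cbln3, a synaptic protein of granule neurons, had 917, 871 and 291 in those 3 tumours, against 13, 8.1 and 15.9 with vehicle. Grin2c, an NMDA receptor subunit of mature granule neurons, had 72.4, 30.9 and 35.4 in 40 mg/kg tumour 2, 160 mg/kg tumour 8 and 160 mg/kg tumour 7, in part within the vehicle range of 13.8 to 56.4. All 5 listed markers on the array were kept, with summed signals of 552 to 3922 at 40 mg/kg, 441 to 4193 at 160 mg/kg and 557 to 618 with vehicle, and 0 of the 5 passed over all treated tumours (0 at an unadjusted p under 0.05 in the limma fit). The summed signal of 21 mitosis and replication genes was lowest in the 3 tumours with high Gabra6, at 29292, 25454 and 29353, against 34650 to 41518 with vehicle. The highest summed signal of oligodendrocyte markers at each dose was also in 40 mg/kg tumour 2 (5374) and in tumour 8 at 160 mg/kg (4310), against 1235 to 1589 with vehicle. However, 40 mg/kg tumours 7 (4841) and 1 (4550), in which 0 members were highest, were nearly as high. In 160 mg/kg tumour 7, with high Gabra6, the sum was 1722. The part of these markers in the members' values was not tested. Without 40 mg/kg tumour 2 and 160 mg/kg tumour 8, a choice made after their values were seen, 4 members rose against vehicle, as did 2.13% of all genes.

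**Figure D4:**
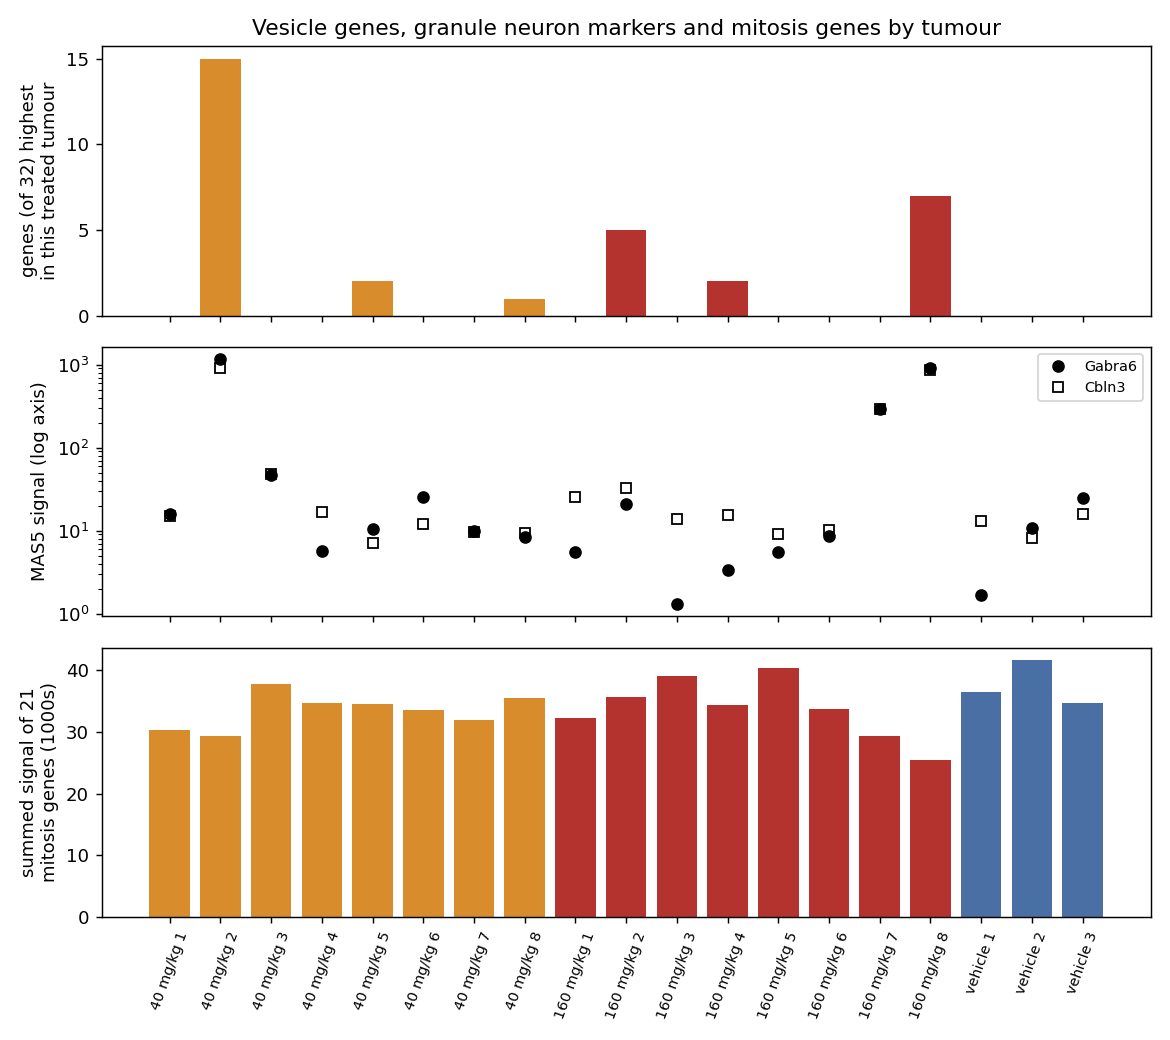
For each treated tumour, the number of the 32 genes with their highest signal there (top), and for every tumour the signals of Gabra6 and Cbln3 (middle, log axis) and the summed signal of 21 mitosis and replication genes (bottom). The count of 15 in 40 mg/kg tumour 2 stands above a Gabra6 signal of 1169, and 160 mg/kg tumour 8 has the lowest mitosis sum, 25454.

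Across the 16 treated tumours, log2 signals of the members were set against those of Snap25, with 31 relations tested. By Pearson correlation 24 were positive at an adjusted permutation p under 0.05 and 0 were negative, and 11 passed by Spearman's rho as well. The median r was 0.64. These relations were not computed for all genes, so no background share stands beside the counts. The points share the scaling of their array, and tumours of 1 dose share the treatment. The closest was Napb (r = 0.88, adjusted p = 0.00031, rho = 0.84, adjusted p = 0.00155), followed by Rab3c (r = 0.87, adjusted p = 0.000465, rho = 0.75, adjusted p = 0.0182) and Pclo (r = 0.83, adjusted p = 0.000517, rho = 0.73, adjusted p = 0.0182). Without the 2 tumours farthest from the median of Snap25, 160 mg/kg tumour 8 and 40 mg/kg tumour 4, 17 of the 24 kept an r over 0.5. Without 40 mg/kg tumour 2 and 160 mg/kg tumour 8, the tumours in which many members were highest, 11 of the 24 did, and the lowest r was 0.14. For Napb, r was 0.83 within the 40 mg/kg and 0.92 within the 160 mg/kg tumours, and 0.80 without that pair of tumours. Slc17a7 showed a relation (r = 0.64, adjusted p = 0.0153, rho = 0.28, adjusted p = 0.305) that no longer held without the same pair (r = 0.14). Slc17a6, higher than all vehicle tumours in every treated tumour, was not among the 24 (r = 0.32, adjusted p = 0.25, rho = 0.33, adjusted p = 0.232), nor was Cplx2 (r = 0.05, adjusted p = 0.84, rho = -0.09, adjusted p = 0.736).

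Other genes of the synapse were counted in the same comparison with vehicle over both doses, in which 2.84% of all kept genes rose and 2.45% fell. Of 41 kept presynaptic genes, 0 rose at 40 mg/kg alone and 1 at 160 mg/kg alone, where 1.7% and 2.45% of all genes did. Over both doses 4 of the 41 rose and 0 fell, with a median change of 0.31. They were Napg, which encodes gamma-SNAP (0.42, adjusted p = 0.0267), Rims3 (1.38, adjusted p = 0.0342) and Erc2 (0.99, adjusted p = 0.0413) of the active zone, and Bin1, an amphiphysin relative (0.51, adjusted p = 0.042). Of 18 kept postsynaptic genes, 3 rose and 0 fell (median 0.25), among them Shank3, a scaffold of excitatory synapses (1.02, adjusted p = 0.0202), and Lrrtm1, a synaptic adhesion protein (2.34, adjusted p = 0.0273). Of 9 dense-core granule genes, 1 rose, Scg3 (0.52, adjusted p = 0.0357), with a median of 0.60. Of 10 pan-neuronal genes, 7 rose and 0 fell (median 1.02), led by Dcx, a microtubule protein of young neurons, at 1.06 (adjusted p = 0.00248).

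The SNARE genes that most cell types use were listed as well. Of 26 kept, 1 rose, the Golgi SNARE gene Gosr1 (0.41, adjusted p = 0.0375), and 0 fell, with a median of -0.06, the same as over all genes. Snap23, the widespread relative of Snap25, had 200 to 226 at 40 mg/kg and 97.7 to 229 at 160 mg/kg, against 183 to 243 with vehicle (-0.11, adjusted p = 0.748). Vamp3, the widespread relative of Vamp2, lay under the lowest vehicle value in 15 of 16 treated tumours but did not pass (-0.36, adjusted p = 0.25). Whether these lists differ from the members was not tested.

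Of the markers of other cell types, 0 genes passed for oligodendrocytes (6 kept), skeletal muscle (8), macrophages (8), endothelium (6), fibroblasts and matrix (7), peripheral nerve (5) and GABAergic interneurons (2), and at an unadjusted p under 0.05 only 1 of the muscle and 1 of the fibroblast genes did. Of 7 astrocyte genes, 1 rose and 1 fell, with 3 changes positive and 4 negative. Their summed signals were 2353 to 4989.5 at 40 mg/kg, 1386 to 3225 at 160 mg/kg and 3831 to 4354 with vehicle. The 160 mg/kg and vehicle ranges did not overlap. In 2 of the 7 genes all 16 treated tumours lay below all vehicle tumours, as in 2.53% of all genes. Of 21 mitosis genes, 0 rose and 1 fell, the spindle motor gene Kif11 (-0.53, adjusted p = 0.0494). Their changes were positive in 2 and negative in 19, with a median of -0.17, against -0.06 over all genes. At an unadjusted p under 0.05 in the limma fit, 4 were negative and 0 positive, where 13.1% of all genes were negative. Summed signals of oligodendrocyte markers were as low as 661 at 40 mg/kg and 552 at 160 mg/kg in other tumours. Those of peripheral nerve were 755 to 2114 at 40 mg/kg, 400 to 1318 at 160 mg/kg and 814 to 1463 with vehicle. Muscle markers reached 15804 in 40 mg/kg tumour 5, against 2707 or less with vehicle. Their part in the members' values was not tested.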

How the data were processed

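The authors deposited linear signal intensities made with MAS5, per the submitters' processing notes; the scaling target and software version are not given in the sources used here. MAS5 subtracts mismatch signal, so dim probe sets are noisy. Gene names came from the platform annotation of the full 430 2.0 array, whereas the series text names the 430A 2.0 array. Of 45101 probe sets, 64 controls were left out. Of the rest, 34945 had 1 gene symbol, 932 several and 9160 none, and genes were named only from the first kind. Every sample column was mapped to a sample (0 unused).

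The signals were used as log2(signal + 2.5), the pseudocount being the 10th percentile of all values. A probe set was kept if it exceeded the 40th percentile of an array on 3 or more arrays. Group means of all 19 arrays were fitted with limma 3.58.1 in R 4.3.3 (lmFit, eBayes with a variance trend, 16 residual degrees of freedom), with Benjamini-Hochberg adjustment over 31143 probe sets. On simulated data for resistant against vehicle over those probe sets, 54% of changes of 1 and 92% of changes of 2 (log2) were recovered, with 2.67% false calls. The simulation drew independent normal values with the same spread in every group, so these rates need not hold for the tumours. Correlations used 100000 permutations in Python 3.11.15, two-sided, adjusted over 31 relations. No detection calls or scan dates were used, so a batch could not be tested. The number of arrays, 3 in the vehicle group, limits the precision.

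The 33 members and the gene lists were chosen with earlier results of these data known. All members are named; from each list, up to 3 called genes with the smallest adjusted p, plus Snap23, Vamp3 and Gad1. Bin1, the only further call on its list, was named after its value was seen. The granule neuron markers Gabra6, Cbln3 and Grin2c were not called and were named outside that rule. Same-numbered tumours were not paired: of 14 same-number pairs, 0 deviated together with a correlation over 0.1 (-0.128 to 0.0904), and no 2 arrays held identical values. The alternatives tried were quantile or median normalization, other pseudocounts and filters, array weights, no variance trend, a replicate block, fits without the group not compared, the mean of probe sets, and leaving out tumours.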

Additional observations from a re-analysis of the deposited data

Results flagged for a closer look

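Signals of single tumours stood apart from the other 7 of their dose in 19 of 64 groups tested, by Dixon's ratio of gap to range on the linear signal. Over all kept genes 11.5% of groups did, more than the 1 in 20 that chance gives for normally distributed values, which linear signals are not. On the log2 scale 8 of the 64 groups stood apart (12.5%), against 9.20% over all genes, and 7 of the 19 values listed here were past the threshold on both scales. At 40 mg/kg, most of these were the highest value in tumour 2. Its fusion and sensor genes were Snap25 at a signal of 2339 (next 648), Vamp1 at 110 (next 62.8), Cplx1 at 486 (next 322), Nsf at 530 (next 328) and Syt1 at 423 (next 177). Its vesicle membrane genes were Sv2a at 157 (next 87.9) and Rab3c at 268 (next 103), its active zone genes Rims1 at 63.9 (next 18.6) and Pclo at 258 (next 125), and Dnm1 stood at 596 (next 140).

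Slc17a7 stood apart in the same tumour, at 127 (next 26.5). The remaining gene at 40 mg/kg was Syt4, at 278 in tumour 1 (next 132). At 160 mg/kg, tumour 8 stood apart for Snap25 at 2992 (next 1524), Vamp1 at 205 (next 68.4), Syn2 at 614 (next 333), Rims1 at 131 (next 30.1) and Slc17a7 at 110 (next 42.5). Tumour 2 of that dose stood apart for Cplx1 at 1057 (next 440) and Sncb at 252 (next 120). Those past it on both scales were Vamp1 and Rims1 in 160 mg/kg tumour 8, Cplx1 in 160 mg/kg tumour 2, and Nsf, Pclo, Dnm1 and Slc17a7 in 40 mg/kg tumour 2.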

How the results depend on the processing

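The counts of members called depended on the settings, and the cause was not tested. Of the 5 members that passed against vehicle over both doses, 3 remained with no filter on low values (3.05% of all genes called) and 3 with no variance trend (4.10%). Array weights gave 16, of which 15 rose and Cplx2 fell, while 30.6% of all genes were called (14 at 40 mg/kg, with 25.7%, and 17 at 160 mg/kg, with 21.3%). Leaving out 1 tumour at a time gave 2 to 6, with 0.937% to 6.42% of all genes called. The count was 2 without vehicle tumour 2 or 3 (1.51% and 0.937% of all genes), and 3 without vehicle tumour 1 (1.65%). It was also 3 without 40 mg/kg tumour 1, 6 or 7, or 160 mg/kg tumour 1 or 7 (4.05% to 5.22%). At 40 mg/kg the range was 1 to 4 (0.472% to 3.60% of all genes) and at 160 mg/kg 1 to 5 (0.945% to 5.95%). At 40 mg/kg 1 was left without vehicle tumour 2 or 3 (0.567% and 0.472%), and at 160 mg/kg 1 was left without vehicle tumour 3 (0.945%). Without vehicle tumour 3 and 160 mg/kg tumour 2 together, a choice made after seeing the data, the counts were 2 over both doses, 1 at 40 mg/kg and 1 at 160 mg/kg. The shares of all genes called there were 1.12%, 0.717% and 0.982%. Snap91 and Slc17a6 passed in 19 of 19 fits without 1 tumour and in all 12 other alternatives, Napb in 17 of 19 and 11 of 12, Rab3a in 9 and 7, and Dnm1 in 9 and 7. The 2 Cplx2 probe sets that fell passed in 17 and 5 of the 19. Unc13a passed with quantile normalization (0.71, adjusted p = 0.0496). Of 986 alternative values of single genes, 29 had the opposite sign, uncalled in both. Between the doses every alternative gave 0. Dim signals, such as those of Rims1 and Slc17a7, limit what can be read from their changes.

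The tumours share replicate numbers across groups, but the numbers are not known to pair them. With the replicate block the counts of members called were 4 over both doses, 2 at 40 mg/kg, 4 at 160 mg/kg and 0 between the doses. Of all genes, 3.25%, 1.27% and 3.43% were called in the comparisons with vehicle, in that order, and 0 between the doses.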
